A study of Mus musculus with 38 samples.

Results

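Prostaglandin synthesis and signalling genes were followed by RNA sequencing in the mouse intestinal epithelium through dextran sodium sulfate (DSS) colitis. The 10 genes were taken by symbol from the 46078 genes in the count files, and all 10 were found. They are the cyclooxygenases Ptgs1 and Ptgs2, the terminal synthases Ptges, Ptges2, Ptges3, Hpgds and Tbxas1, the degrading enzyme Hpgd, and the receptors Ptger2 and Ptger4. The 38 libraries were of intestinal epithelial cells, 1 library per animal, and the series text names colon tissue. KO animals (Hk2dIEC) carried a floxed Hk2 allele cut by a CRE recombinase that the Villin promoter drives in the intestinal epithelium. WT animals were littermates with the floxed allele (Hk2fl/fl), so both genotypes carry floxed Hk2 and neither is an unmodified mouse. All were C57BL/6 mice. The groups were untreated WT (WT day 0, n = 4) and untreated KO (KO day 0, n = 5), WT and KO after 3 days of DSS (WT day 3, n = 7; KO day 3, n = 8), and WT and KO after 7 days of DSS (WT day 7, n = 7; KO day 7, n = 7). DSS was given at 1.5% in drinking water to co-housed males aged 10 to 12 weeks. Basal phenotyping used animals of 9 to 11 or 86 to 92 weeks, and the age and sex of the day 0 animals are not given in the labels.

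Prostaglandins are lipid mediators made from arachidonic acid. Phospholipases release the fatty acid from membranes, a cyclooxygenase turns it into prostaglandin H, and a terminal synthase turns that into prostaglandin E, prostaglandin D, prostacyclin or thromboxane. In the intestine, prostaglandin E acts on epithelial and immune cells through its receptors and is known for a part in mucosal repair, and 15-hydroxyprostaglandin dehydrogenase inactivates it. Ptgs1 is the cyclooxygenase that many resting cells make, and Ptgs2 is the one induced by injury and cytokines. In the intestinal epithelium, tuft cells are known for making Ptgs1 and Hpgds.

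All 10 are protein-coding genes, and their positions are those of the count files on GRCm38. The cyclooxygenase genes are Ptgs1 (ENSMUSG00000047250, chr2:36230426-36252272, plus strand) and Ptgs2 (ENSMUSG00000032487, chr1:150100031-150108227, plus strand). The prostaglandin E synthase genes are Ptges (ENSMUSG00000050737, chr2:30889471-30929863, minus strand), Ptges2 (ENSMUSG00000026820, chr2:32395896-32405772, plus strand) and Ptges3 (ENSMUSG00000071072, chr10:128058954-128077272, plus strand). Hpgds (ENSMUSG00000029919, chr6:65117293-65144908, minus strand) and Tbxas1 (ENSMUSG00000029925, chr6:38875404-39084585, plus strand) lie on chromosome 6. Hpgd is at chr8:56294552-56321046 on the plus strand (ENSMUSG00000031613). The receptor genes are Ptger2 (ENSMUSG00000037759, chr14:44988195-45003820, plus strand) and Ptger4 (ENSMUSG00000039942, chr15:5206661-5244187, minus strand).

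The regions around the annotated starts of 3 members are shown because Ptgs2 rose and Ptger4 fell from day 3 to day 7 in both genotypes and Ptgs1 is the other cyclooxygenase. Each holds 300 bases, 250 before the start and 50 from it, read 5′ to 3′ on the strand of the gene, from RefSeq on the GRCm38.p6 build. Ptgs2 lies on chromosome 1 (chr1:150099781-150100080, plus strand), Ptgs1 on chromosome 2 (chr2:36230176-36230475, plus strand) and Ptger4 on chromosome 15 (chr15:5244138-5244437, minus strand). Capitals mark letters that match a searched motif.
Ptgs2: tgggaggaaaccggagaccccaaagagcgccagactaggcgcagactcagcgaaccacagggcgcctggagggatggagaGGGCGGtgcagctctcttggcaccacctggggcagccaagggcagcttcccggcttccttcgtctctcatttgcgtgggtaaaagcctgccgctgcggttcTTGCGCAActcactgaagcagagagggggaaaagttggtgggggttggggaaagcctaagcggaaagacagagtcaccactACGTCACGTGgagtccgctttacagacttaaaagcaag
Ptgs1: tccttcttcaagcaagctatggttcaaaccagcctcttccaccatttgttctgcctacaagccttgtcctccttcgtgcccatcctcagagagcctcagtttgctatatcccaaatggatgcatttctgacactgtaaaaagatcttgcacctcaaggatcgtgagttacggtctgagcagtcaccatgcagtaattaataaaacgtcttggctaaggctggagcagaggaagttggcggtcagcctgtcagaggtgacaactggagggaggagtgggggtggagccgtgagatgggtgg
Ptger4: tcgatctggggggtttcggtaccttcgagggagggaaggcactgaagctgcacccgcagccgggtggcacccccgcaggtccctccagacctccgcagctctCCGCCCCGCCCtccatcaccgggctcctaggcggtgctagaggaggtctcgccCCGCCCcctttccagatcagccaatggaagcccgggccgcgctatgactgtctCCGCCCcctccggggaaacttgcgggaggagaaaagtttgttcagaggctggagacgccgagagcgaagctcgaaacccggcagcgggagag

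Both strands of the 10 members' regions were searched for 7 motifs. In the Ptgs2 region, a GC box (GGGCGG) began 170 bases before the start and a C/EBP motif (TTGCNNAA, here TTGCGCAA) 69 bases before it. A CRE core (ACGTCA) and an E-box (CACGTG) began at bases 13 and 17 counted from the start as base 1, and these overlap, so they form 1 run of capitals. The Ptger4 region held 4 GC boxes on the opposite strand, read here as CCGCCC, of which the first 2 overlap, and the Ptgs1 region held no match to any of the 7. Of the 32851 RefSeq start regions of this length, 35.7% held a GC box, 10.8% the C/EBP motif, 7.51% the CRE core and 7.15% the E-box. The TATA box (TATAAA) was in 13.6%, AP-1 (TGANTCA) in 7.81% and the NF-kB motif in 8.46% of them, and none of these 3 matched the Ptgs2 region. A match describes letters in the window only.

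The 38 libraries held 10.5 to 60.6 M counted read pairs (median 43.2 M), so that 3 counts were 0.0495 to 0.286 per M counts before scaling. The CPM (counts per M counts) given here are scaled between libraries by TMM. On that scale 3 counts of Ptgs2 in d3_WT_381 were 0.164 CPM, beside 0.112 before scaling. The 9 day 0 libraries carried another series prefix and held 6.25 to 45.6% mitochondrial ribosomal RNA against 0.352 to 3.95% in the 29 later libraries, so day 0 and library series cannot be told apart. The deleted gene, Hk2, had less signal in KO on day 0 (254 to 449 CPM in WT and 33.1 to 118 CPM in KO, log2 change -2.20, SE 0.30, adjusted p 0.0331 by edgeR), a call lost in 6 of the 9 fits that left out one library (adjusted p up to 0.176). On day 3 it did not pass (-0.27, SE 0.33, adjusted p 0.802 by edgeR), nor without the library labelled d3_KO_345 (-0.74, adjusted p 0.77 by edgeR). The library labelled d3_KO_345 had 435 CPM of Hk2, above all 7 WT day 3 libraries (97.0 to 221 CPM), against 68.4 to 128 CPM in the remaining 7 of KO day 3. On day 7 the Hk2 difference was -1.25 (SE 0.30, adjusted p 0.291 by edgeR). Summed levels of 6 epithelial markers (Epcam, Cdh1, Krt8, Krt18, Krt20, Vil1) were 7274 to 13226 CPM over all libraries.

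Levels per transcript length, in TPM (transcripts per M), set Hpgd first in all 6 groups, with group means of 180 TPM (KO day 0) to 282 TPM (WT day 3). Ptges3, a co-chaperone also described as cytosolic prostaglandin E synthase, was next in every group, at 45.4 to 73.8 TPM. Ptges2, the membrane-associated synthase, had group means of 11.5 to 19.3 TPM and Ptger4, the EP4 receptor of prostaglandin E, 10.4 to 21.9 TPM. These neighbours changed places, with Ptger4 above Ptges2 on day 0 and Ptges2 above Ptger4 on days 3 and 7, and their ranges over libraries overlapped in every group but WT day 0 and WT day 7. Hpgds, the haematopoietic prostaglandin D synthase, had 2.98 to 4.46 TPM, and Ptgs1 had 1.00 to 1.75 TPM. Ptges, the inducible microsomal prostaglandin E synthase, had 0.822 to 1.84 TPM and its range overlapped that of Ptgs1 in every group but WT day 0. Tbxas1, thromboxane A synthase, had 0.0422 to 0.666 TPM, and Ptger2, the EP2 receptor, had 0.0198 to 0.307 TPM and was last in every group. Ptgs2 was the member whose place moved most, from next to last on day 0 (0.206 TPM in WT, 0.113 TPM in KO) to the third on day 7 (23.6 TPM in WT, 25.5 TPM in KO). The plot of level per length shows this order by group. TPM totals include mitochondrial ribosomal RNA, so TPM of day 0 and of later libraries are not on the same scale. The library d0_KO_32, with 45.6% of that RNA, had the lowest Hpgd level of all libraries, 66.4 TPM. In CPM the mean of Hpgd in KO day 0 (168.5) was above those of WT day 0 (163.1) and KO day 7 (135.6).

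**Figure D1:**
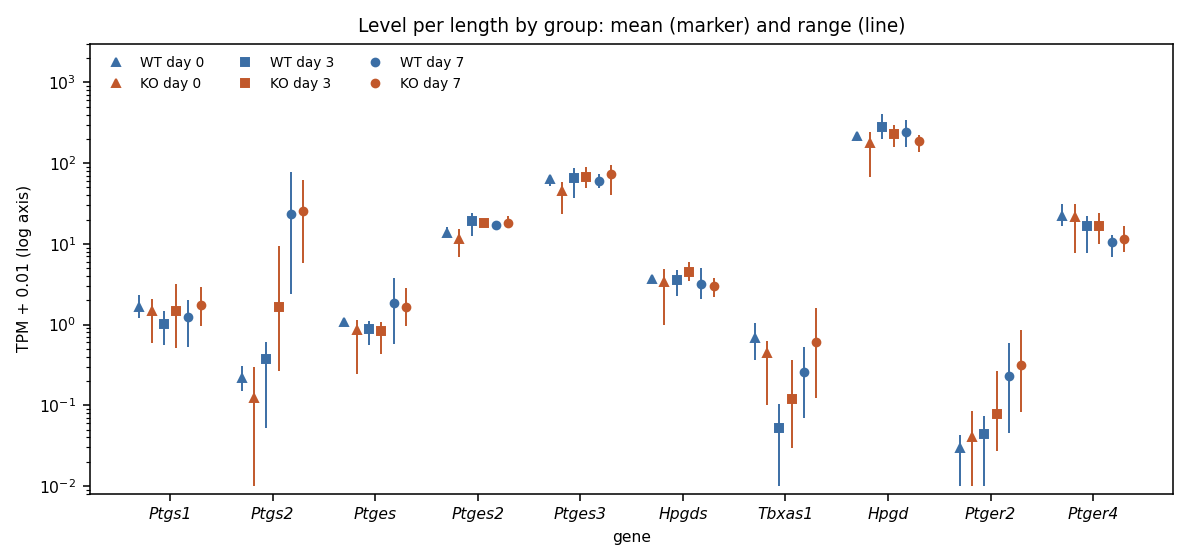
Level per length of each gene (x axis) in TPM + 0.01 on a log axis, with the mean (marker: triangle day 0, square day 3, circle day 7) and the range over libraries (line) of each group, WT in blue and KO in orange. Hpgd lies highest in all groups, and Ptgs2 moves from a mean of 0.206 TPM in WT day 0 to 23.6 TPM in WT day 7.

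From day 3 to day 7, Ptgs2, Ptges and Tbxas1 rose and Ptger4 fell in WT. In KO, Ptgs2, Ptges, Tbxas1 and Ptger2 rose, and Hpgds and Ptger4 fell. Tests compared counts with the edgeR quasi-likelihood test, adjusted over all genes tested, with a call at an adjusted p under 0.05. In WT, 3 of 9 members tested were called higher and 1 lower, where the shares of all 15541 genes were 10.6% higher and 8.7% lower (19.3% in either direction). In KO, 4 of 10 were called higher and 2 lower, where 10.5% of 15568 genes were called higher and 8.83% lower (19.3% in either direction). The median log2 change of the members tested was 0.02 in WT and 0.13 in KO, beside 0.01 and -0.01 over all genes tested. Ptgs2 in WT and Tbxas1 in both genotypes passed the filter on low counts through day 7 and would not have passed on day 3 alone. Ptger2 in KO would have passed on neither day alone. The counts of calls are therefore a description and support nothing. Ptger2 was not tested in WT.

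Ptgs2 was near the counting floor on day 0, low on day 3 and high on day 7. On day 0 its counts were 4, 8, 11 and 17 in WT (0.290 to 0.519 CPM) and 0, 2, 2, 4 and 8 in KO (0 to 0.769 CPM). In WT day 3 it was 0.164 CPM at the lowest, 0.637 CPM at the median and 1.04 CPM at the highest, with 3 to 49 counts. In WT day 7 it was 4.28, 24.6 and 148 CPM, so every day 7 library lay above every day 3 library. The mean rose from 0.638 ± 0.345 CPM (SD, n = 7) to 46.4 ± 54.3 CPM (SD, n = 7), a ratio of 72.7 and a log2 change of 6.10 (SE 0.79, adjusted p 0.000125 by edgeR). Without d7_WT_419 it was 5.45 (adjusted p 0.000134 by edgeR). Day 7 libraries spread widely, with d7_WT_361 lowest and d7_WT_356 (95.0 CPM) and d7_WT_419 highest.

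In KO day 3, Ptgs2 was 0.543 to 1.75 CPM in 7 libraries and 16.4 CPM in the library labelled d3_KO_345. In KO day 7 it was 9.94 CPM at the lowest, 28.4 CPM at the median and 147 CPM at the highest, the 2 highest being d7_KO_422 (105 CPM) and d7_KO_420. Only the library labelled d3_KO_345 made these groups overlap. The log2 change was 4.12 (SE 0.87, adjusted p 0.00303 by edgeR), and it was 5.79 (adjusted p 2.99e-05 by edgeR) without that library.

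Ptges rose with Ptgs2, by a smaller factor. In WT it was 1.17, 1.34 and 1.81 CPM (lowest, median, highest) on day 3 and 1.36, 2.08 and 6.29 CPM on day 7, with 6 of 7 day 7 libraries above all day 3 libraries. This was a log2 change of 1.17 (SE 0.30, adjusted p 0.0127 by edgeR). KO levels were 0.772, 1.37 and 1.6 CPM on day 3 and 1.39, 2.07 and 5.63 CPM on day 7, with 4 of 7 above all day 3 libraries, and the log2 change was 1.01 (SE 0.29, adjusted p 0.0203 by edgeR). The highest Ptges levels of day 7 were in d7_WT_356, d7_WT_419 (5.05 CPM), d7_KO_420 and d7_KO_422 (4.10 CPM), the same 4 libraries that were highest in Ptgs2.

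The constitutive prostaglandin E synthases did not pass from day 3 to day 7. Ptges2 was 34.1 to 52.7 CPM in WT day 3 and 32.1 to 48.8 CPM in WT day 7, with a log2 change of -0.04 (SE 0.12, adjusted p 0.856 by edgeR). In KO it was -0.01 (SE 0.07, adjusted p 0.935 by edgeR). Ptges3 was 50.6 to 79.4 CPM in WT day 3 and 48.5 to 93.7 CPM in WT day 7, with 0.02 in WT (SE 0.16, adjusted p 0.955 by edgeR) and 0.09 in KO (SE 0.12, adjusted p 0.666 by edgeR). The small standard errors of Ptges2 bound its change tightly, whereas those of Ptgs2 are wide.

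Ptgs1 did not pass from day 3 to day 7 either, at 0.35 in WT (SE 0.29, adjusted p 0.451 by edgeR) and 0.16 in KO (SE 0.40, adjusted p 0.832 by edgeR). It was 0.747, 1.59 and 2.80 CPM in WT day 3 and 1.22, 1.61 and 3.32 CPM in WT day 7, and the groups overlapped. In KO day 3 the 8 libraries fell into 2 sets, 4 at 0.659 to 1.33 CPM and 4 at 3.03 to 4.67 CPM. The 4 high ones (d3_KO_385, d3_KO_387, d3_KO_388 and d3_KO_392) had 65.6 to 86.9 CPM summed over 7 tuft cell markers (Dclk1, Trpm5, Pou2f3, Gfi1b, Avil, Sh2d6, Il25). The 4 low ones (d3_KO_345, d3_KO_349, d3_KO_350 and d3_KO_351) had 17.2 to 30.4 CPM, so the sets did not overlap in either measure. These sets also follow the animal numbers. Among WT day 3 libraries, d3_WT_381 was highest in Ptgs1 (2.80 CPM) and in the tuft cell sum (59.2 CPM). Whether animals of near numbers were handled together is not given in the labels. In KO day 7 Ptgs1 was 1.53 to 4.69 CPM while the tuft cell sum was only 19.7 to 28.7 CPM. The highest Ptgs1 level was in d7_KO_368. That library had the highest macrophage sum (311 CPM over 7 genes) and the highest stromal sum (220 CPM over 7 genes) of KO day 7. Next in Ptgs1 was d7_KO_366 (3.965 CPM), with 210 CPM of macrophage and 202 CPM of stromal markers. The part of cell composition in these levels was not tested.

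Hpgds, which makes prostaglandin D, fell in KO and not detectably in WT. KO libraries had 5.39, 6.37 and 8.09 CPM on day 3 and 3.25, 4.63 and 5.46 CPM on day 7, with 6 of 7 day 7 libraries below all day 3 libraries. This was a log2 change of -0.61 (SE 0.13, adjusted p 0.00359 by edgeR). In WT it was 3.58, 5.16 and 6.80 CPM on day 3 and 3.62, 4.55 and 7.63 CPM on day 7, and the log2 change was -0.03 (SE 0.19, adjusted p 0.93 by edgeR). The test of the difference between these changes gave -0.56 (SE 0.23, unadjusted p 0.0204, adjusted p 0.9999 by edgeR), so the change was not shown to differ between genotypes. The tuft cell sum went from 16.9 to 59.2 CPM in WT day 3 to 15.7 to 25.3 CPM in WT day 7 and from 17.2 to 86.9 CPM in KO day 3 to 19.7 to 28.7 CPM in KO day 7. Of the 6 tuft cell markers tested, 3 were called lower in KO and 1 in WT, where 8.83% and 8.7% of all genes were. Their part in the Hpgds change was not tested.

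Tbxas1, which makes thromboxane, was at or near the counting floor on day 3. Counts were 0 to 16 in WT day 3 (0 to 0.328 CPM) and 7 to 93 in WT day 7 (0.329, 0.711 and 2.01 CPM as lowest, median and highest), so the day 7 libraries lay above all day 3 libraries, by a narrow margin at the lowest. The log2 change was 2.66 (SE 0.49, adjusted p 0.00156 by edgeR). KO levels were 0.0599, 0.340 and 1.23 CPM on day 3, highest in the library labelled d3_KO_345, and 0.382, 1.41 and 6.08 CPM on day 7. The log2 change in KO was 2.41 (SE 0.60, adjusted p 0.00955 by edgeR), and 2.91 (adjusted p 0.00239 by edgeR) without that library. The highest day 7 levels were in d7_KO_368 and d7_KO_366 (4.19 CPM), while in WT they were in d7_WT_419 and d7_WT_356 (1.80 CPM), the libraries highest in Ptgs2. Tbxas1 overlaps Hipk2 and antisense genes on the other strand, whose reads the unstranded counting cannot separate where exons overlap. With Hipk2 the overlap is intronic.

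Hpgd, the enzyme that inactivates prostaglandin E, was not called between these days. It was 140, 180 and 286 CPM in WT day 3 and 133, 174 and 266 CPM in WT day 7, a log2 change of -0.09 (SE 0.18, adjusted p 0.784 by edgeR). In KO it was 104, 166 and 194 CPM on day 3 and 97.6, 135 and 185 CPM on day 7, a log2 change of -0.30 (SE 0.14, adjusted p 0.149 by edgeR). The lowest KO day 3 level was in the library labelled d3_KO_345, and without it the change was -0.38 (adjusted p 0.0294 by edgeR). Leaving out d7_KO_420, the highest KO day 7 library, gave -0.39 (adjusted p 0.0483 by edgeR).

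In KO the receptors moved in opposite directions. Ptger2 had 0 to 4 counts in each WT day 3 library and 2 to 41 counts in each WT day 7 library (0.0584, 0.313 and 0.912 CPM). In KO it had 1 to 4 counts in 7 day 3 libraries and 17 counts in the library labelled d3_KO_345, and 5 to 64 counts on day 7 (0.101, 0.362 and 1.31 CPM), with a log2 change of 2.13 (SE 0.53, adjusted p 0.00941 by edgeR). Without the library labelled d3_KO_345, Ptger2 did not pass the filter and was not tested.

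Ptger4 was the more abundant receptor and fell. In WT it was 34.1, 44.4 and 52.7 CPM on day 3 and 19.4, 32.7 and 45.6 CPM on day 7, with 5 of 7 day 7 libraries below all day 3 libraries. The log2 change was -0.49 (SE 0.16, adjusted p 0.0457 by edgeR). In KO it was 33.2, 42.6 and 63.5 CPM on day 3 and 23.2, 26.8 and 45.0 CPM on day 7, with 4 of 7 below all day 3 libraries, and the log2 change was -0.54 (SE 0.16, adjusted p 0.0269 by edgeR). These calls are close to the threshold, and in WT 10 of 14 fits with a library omitted (by name d3_WT_346, d3_WT_348, d3_WT_352, d3_WT_353, d7_WT_356, d7_WT_361, d7_WT_370, d7_WT_393, d7_WT_419 and d7_WT_431) lost the call, with adjusted p up to 0.099 and log2 changes of -0.62 to -0.40. In KO, 5 of 15 lost it (without d3_KO_349, d3_KO_350, d7_KO_366, d7_KO_367 or d7_KO_368), with log2 changes of -0.65 to -0.45 and adjusted p up to 0.0611. Ptger4 shares 82 exonic bases with Ttc33 on the other strand, and its exons also overlap those of Gm15937, a processed pseudogene on that strand, by 1015 bases summed over pairs of exons.

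**Figure D2:**
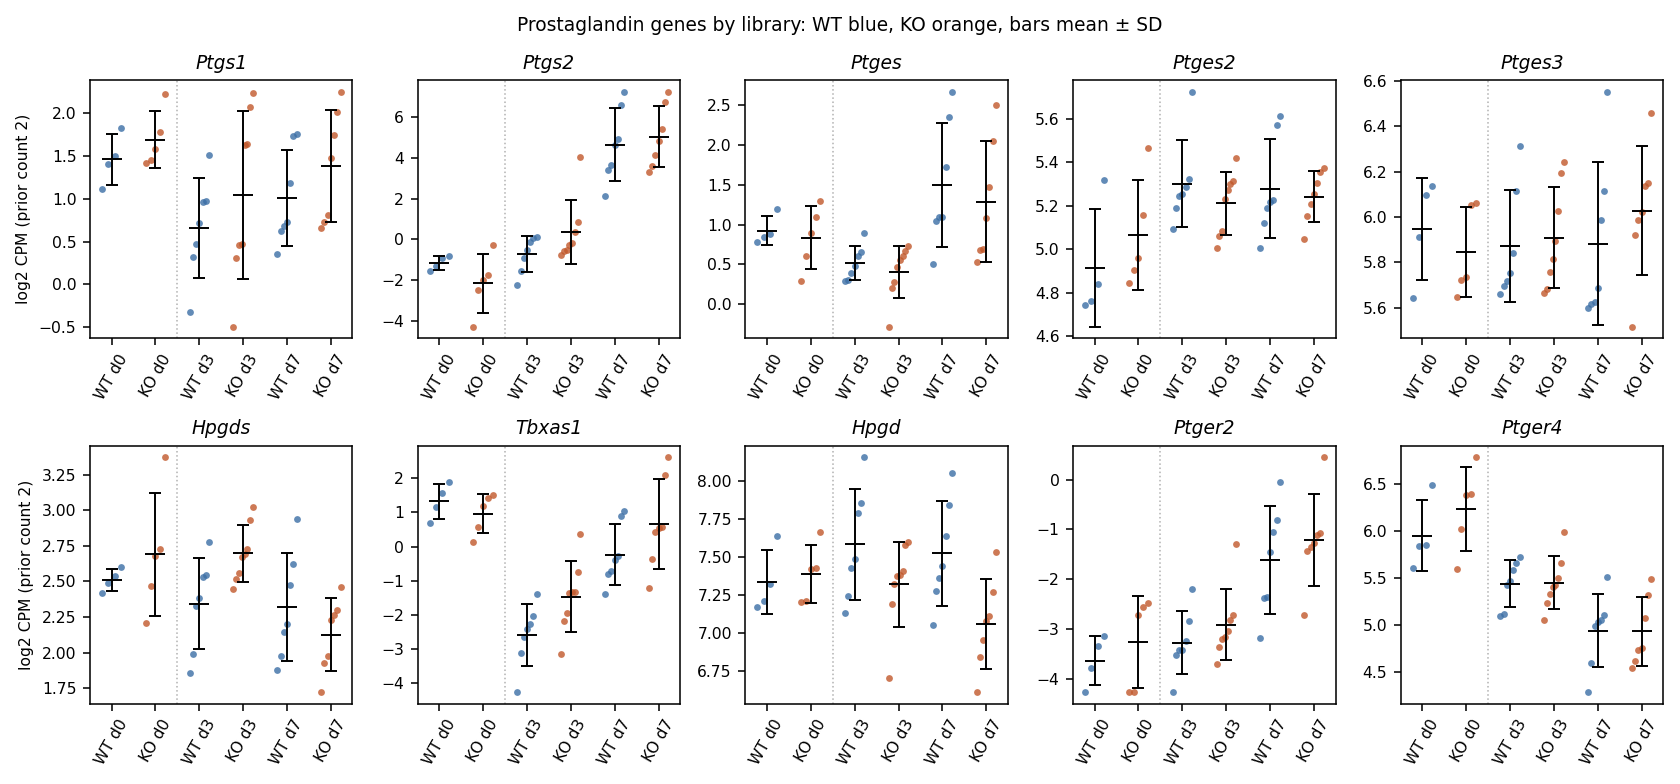
Level of each gene in every library, in log2 CPM with a prior count of 2 (y axis), by group (x axis), with points for libraries and bars for the mean ± SD, and a dotted line between day 0 and the later library series. Ptgs2 rises from at most 1.04 CPM in WT day 3 to at least 4.28 CPM in WT day 7, and Ptger4 falls from day 0 to day 7.

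Markers of infiltrating cells moved with the rise of Ptgs2. The sum of 6 neutrophil markers (S100a8, S100a9, Mmp8, Retnlg, Csf3r, Cxcr2) was 0.0178 to 1.03 CPM in WT day 3, where Mmp8 and Retnlg had 3 counts or fewer in every library, and 79.2 to 878 CPM in WT day 7. In KO it was 0.0799 to 2.89 CPM in 7 day 3 libraries, 34.5 CPM in the library labelled d3_KO_345 and 31.3 to 1393 CPM on day 7. All 6 were called higher on day 7 in both genotypes. Between day 3 and day 0, only 2 of the 6 were tested in WT and 0 in KO. Most of them therefore passed the filter on low counts through day 7, and their calls are a description. For this and the marker counts below, 10.6% of all genes were called higher and 8.7% lower in WT. In KO the shares were 10.5% and 8.83%. The sum of 7 macrophage markers (Csf1r, Adgre1, Cd68, Itgam, Fcgr1, Cd14, Mrc1) was 35.1 to 43 CPM in WT day 3 and 65.2 to 323 CPM in WT day 7, with 6 called higher in both genotypes. In KO it was 32.5 to 41.2 CPM in 7 day 3 libraries, 127 CPM in the library labelled d3_KO_345 and 73.3 to 311 CPM on day 7. Of 3 pan-leukocyte markers (Ptprc, Coro1a, Laptm5), 3 were called higher in both genotypes, and their sum was 6.88 to 40.1 CPM in WT day 3 and 36.8 to 190 CPM in WT day 7. The sum of 7 mast cell markers (Cpa3, Kit, Tpsab1, Tpsb2, Fcer1a, Mcpt1, Mcpt2) was 45.6 to 84.3 CPM in WT day 3 and 43.6 to 98.4 CPM in WT day 7, but its members moved apart. Of 3 tested in WT, Mcpt1 and Mcpt2 were called higher and Kit lower. Of 5 tested in KO, Cpa3, Mcpt1 and Mcpt2 were called higher and Kit lower. Of 5 T cell markers (Cd3e, Cd3g, Cd8a, Cd4, Trac), 1 was called higher in WT and 5 in KO. None of 7 stromal markers (Col1a1, Col1a2, Col3a1, Dcn, Lum, Pdgfra, Pdgfrb) was called by edgeR, with 0 in WT and 2 in KO at an unadjusted p under 0.05. Their sum was highest in d7_KO_368 (220 CPM) and d7_KO_366 (202 CPM), the libraries highest in Tbxas1. The epithelial sum was 8572 to 11555 CPM on day 7. In bulk samples, more or fewer cells of a type and more or less RNA per cell cannot be told apart, and the part of infiltrating and stromal cells in Ptgs2, Ptges, Tbxas1 and Ptger2 was not tested.

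**Figure D3:**
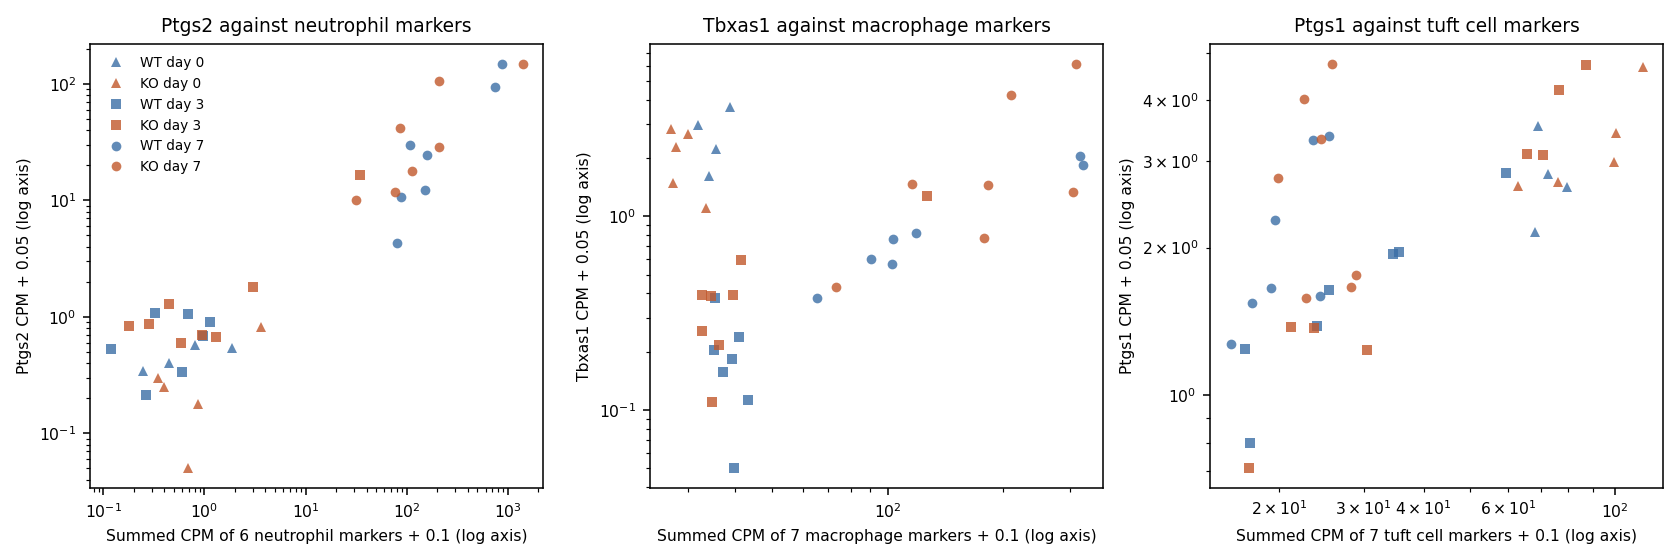
Levels of Ptgs2, Tbxas1 and Ptgs1 in each library (y axes, CPM + 0.05) against the summed CPM + 0.1 of neutrophil, macrophage and tuft cell markers (x axes), all on log axes, WT in blue and KO in orange, with a triangle for day 0, a square for day 3 and a circle for day 7. In the left panel the library labelled d3_KO_345 (16.4 CPM of Ptgs2) is the orange square beside the day 7 libraries, and in the right panel 4 KO day 3 libraries lie at 65.6 to 86.9 CPM of tuft cell markers.

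Over the 14 day 7 libraries, the genes ordered most like Ptgs2 among 9418 genes with a mean log2 CPM of at least 3 were Il1b, an inflammatory cytokine, and Clec4e, a receptor of myeloid cells, both with a Spearman rho of 0.969. Cytip followed with 0.952, and Plek and Vav1, genes known from blood cells, with 0.947 each. Those most like Hpgd were Adck5, Cyp4b1, a monooxygenase, and Sult1d1, a sulfotransferase, with 0.912 each, and Adprm and Wdr45 with 0.908 each. These values describe libraries that share 2 genotypes and 1 day and carry no test.

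Against day 0, the comparisons hold the difference in library series. Between day 3 and day 0 in WT, 1 of 9 members tested was called higher and 3 lower, where 20.4% of genes were called higher and 25.6% lower (46% in either direction). In KO, 1 of 9 was called higher and 2 lower, where 22.6% and 23.7% were (46.3% in either direction). Between day 7 and day 0, 2 of 10 were called higher and 2 lower in each genotype, where 27.8% and 29.2% of genes were in WT (56.9% in either direction) and 27.3% and 27.3% in KO (54.6% in either direction). These shares of members are near the background or below it. The members called higher on day 7 were Ptgs2 and Ptger2 in both genotypes, and neither would have passed the filter on day 0 alone. Ptger2 would not have passed on day 7 alone either. Between day 3 and day 0, Ptgs2 in KO would not have passed on day 0 alone and Tbxas1 in WT not on day 3 alone. Tbxas1 in KO would have passed on neither of these days alone. These counts too are descriptions. The comparisons with day 3 and with day 7 share their day 0 libraries.

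Ptger4 was highest on day 0 and fell to both later days. It was 48.9, 57.3, 57.8 and 90.0 CPM in the WT day 0 libraries and 48.5, 65.2, 83.4, 84.4 and 111 CPM in the KO day 0 libraries, and every day 7 library of the same genotype was below these. The log2 change to day 7 was -1.04 in WT (SE 0.21, adjusted p 0.000899 by edgeR) and -1.34 in KO (SE 0.21, adjusted p 0.000104 by edgeR). To day 3 it was -0.55 in WT (SE 0.16, adjusted p 0.0141 by edgeR), with -0.34 (adjusted p 0.0826 by edgeR) without d0_WT_46, and -0.81 in KO (SE 0.17, adjusted p 0.00133 by edgeR). Ptgs2 was higher on day 7 than on day 0 by 6.80 in WT (SE 1.18, adjusted p 0.000329 by edgeR) and 7.56 in KO (SE 1.07, adjusted p 4.96e-05 by edgeR) on the log2 scale, a fit that rests on 0 to 17 counts per day 0 library. These were 6.12 without d7_WT_419 and 8.30 without d0_KO_54. Between day 3 and day 0 in KO it was at 3.42 (SE 1.21, adjusted p 0.03 by edgeR) and at 1.76 (adjusted p 0.0144 by edgeR) without the library labelled d3_KO_345. The call held without that library and was lost without any one of d0_KO_24, d0_KO_32, d0_KO_53 and d0_KO_60, with an adjusted p up to 0.0707. Without d0_KO_54 the change was 4.18 (adjusted p 0.0326 by edgeR).

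Tbxas1 had its own course. On day 0 it was 1.58, 2.17, 2.93 and 3.64 CPM in WT and 1.06, 1.44, 2.25, 2.61 and 2.78 CPM in KO. All 7 WT day 3 libraries were below these WT levels (log2 change -4.11, SE 0.42, adjusted p 3.44e-06 by edgeR), and the change in KO was -2.31 (SE 0.49, adjusted p 0.00131 by edgeR). By day 7 it was still lower than on day 0 in WT (-1.45, SE 0.45, adjusted p 0.014 by edgeR), a call lost without d0_WT_41 (adjusted p 0.0522). In KO it was not called between these days (0.09, SE 0.59, adjusted p 0.906 by edgeR). The macrophage sum on day 0 was 31.9 to 38.5 CPM in WT and 27 to 33.3 CPM in KO, beside 35.1 to 43 CPM in WT day 3.

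Ptgs1 fell by 0.78 on the log2 scale from WT day 0 (2.10, 2.61, 2.77 and 3.49 CPM) to WT day 3 (SE 0.30, adjusted p 0.0457 by edgeR), and Ptges2 rose by 0.37 (SE 0.14, adjusted p 0.0475 by edgeR). Each call was lost in 8 of the 11 fits that left out one library. The Ptgs1 call held without d3_WT_381, d3_WT_487 or d0_WT_43, and the Ptges2 call held without d3_WT_352, d3_WT_381 or d0_WT_31, with adjusted p up to 0.156 and 0.155 in the others. The tuft cell sum was 68.1 to 79.3 CPM in WT day 0 and 62.6 to 114 CPM in KO day 0, so all WT day 0 libraries lay above all WT day 3 libraries (16.9 to 59.2 CPM), while the KO ranges overlapped. The part of this in the Ptgs1 change was not tested. Hpgds on day 7 was lower than on day 0 in KO (-0.63, SE 0.20, adjusted p 0.016 by edgeR), a call lost without d0_KO_54 (-0.42, adjusted p 0.0661). Ptger2 had 0 to 2 counts in each day 0 library and was called higher on day 7 in WT (adjusted p 0.00683 by edgeR) and KO (adjusted p 0.0142 by edgeR), and no fold is given against libraries at the counting floor.

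None of the members passed between genotypes by edgeR with all libraries in the fit. On day 0, 0 of 8 tested were called by edgeR, where 0.0335% of genes were, and 0 had an unadjusted p under 0.05, as 10.5% of genes did. Log2 changes ran from -0.35 for Tbxas1 (SE 0.32) to 0.28 for Ptger4 (SE 0.23). On day 3, 0 of 8 were called, where 0.00647% of genes were, with 2 at an unadjusted p under 0.05, as 7.88% of genes were. On day 7, 0 of 10 were called, where 0.00642% of genes were, with 2 at an unadjusted p under 0.05, as 12.9% of genes were. On each of these days DESeq2 called 0 members as well.

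The largest genotype difference among the members on day 3 was Ptgs2, at 2.12 (SE 0.77, adjusted p 0.623 by edgeR), and it rested on 1 library. Without the library labelled d3_KO_345 it was 0.49 (adjusted p 0.79 by edgeR). Ptgs1 was at 0.58 (SE 0.39, adjusted p 0.67 by edgeR) and Hpgds at 0.34 (SE 0.14, adjusted p 0.623 by edgeR) on that day. The animal numbers were not balanced between genotypes on day 3. Only d3_WT_381 of WT was numbered near the KO set high in Ptgs1 (d3_KO_385, d3_KO_387, d3_KO_388 and d3_KO_392). The part of this imbalance in the day 3 differences was not tested. On day 7 Ptgs2 was at 0.16 (SE 0.76, adjusted p 0.942 by edgeR), a standard error that leaves large differences in either direction undetectable with 7 animals against 7. With one library omitted it ran from -0.36 (without d7_KO_420) to 0.81 (without d7_WT_419). The others on day 3 were Ptges at -0.09, Ptges2 at -0.09, Ptges3 at 0.04 and Ptger4 at 0.02. On day 7 Ptges and Hpgds were each at -0.22, Ptges2 at -0.05, Ptges3 at 0.12, Ptger2 at 0.35 and Ptger4 at -0.01. Ptgs1 was at 0.41 on day 7 (SE 0.31, adjusted p 0.559 by edgeR) and at 0.24 without d7_KO_368. The genotype difference of Ptgs2 changed by -1.96 between days 3 and 7 (SE 1.16, adjusted p 0.9999 by edgeR), and by -0.30 without the library labelled d3_KO_345. This interaction test called 0 of 10 members and 0% of all genes, with 1 member and 2.69% of genes at an unadjusted p under 0.05.

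Hpgd and Tbxas1 came closest to the threshold. Hpgd on day 7 was 97.6 to 185 CPM in KO and 133 to 266 CPM in WT, a difference of -0.48 (SE 0.16, adjusted p 0.302 by edgeR), and on day 3 it was -0.28 (SE 0.16, adjusted p 0.634 by edgeR), or -0.17 without d3_WT_381. Tbxas1 on day 7 was 0.382 to 6.08 CPM in KO and 0.329 to 2.01 CPM in WT, a difference of 1.20 (SE 0.57, adjusted p 0.386 by edgeR). It was 0.72 without d7_KO_368. Over days 3 and 7 in a model with day, 0 of 10 members were called by edgeR, where 0.0122% of genes were, with 2 at an unadjusted p under 0.05, as 21.5% of genes were. Hpgd was at -0.38 (SE 0.12, adjusted p 0.0925 by edgeR), Tbxas1 at 1.29 (SE 0.40, adjusted p 0.0955 by edgeR) and Ptgs1 at 0.49 (SE 0.26, adjusted p 0.264 by edgeR). The DESeq2 Wald test called 2 of them, Tbxas1 (adjusted p 0.0384) and Hpgd (adjusted p 0.049), and without d3_WT_346 edgeR called Hpgd (adjusted p 0.0441).

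**Figure D4:**
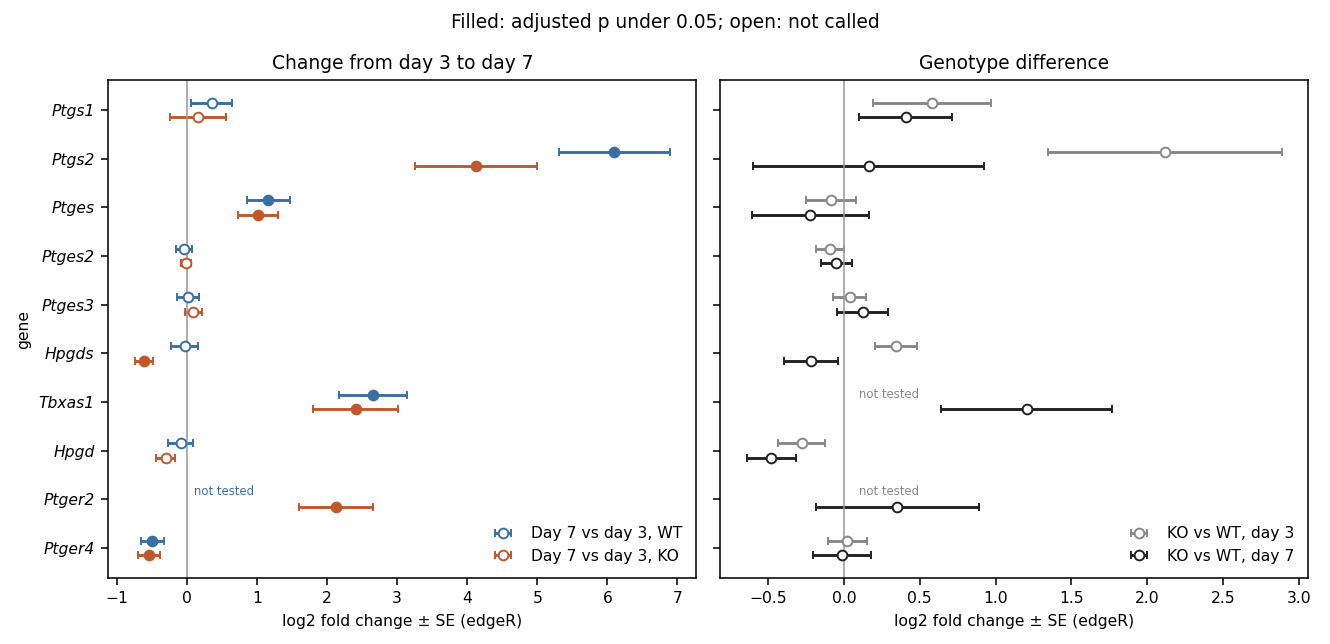
Log2 fold change ± SE from edgeR (x axes) of each gene (y axis) for day 7 against day 3 in WT and KO (left) and KO against WT on days 3 and 7 (right), filled where the adjusted p is under 0.05. Filled points occur in the left panel alone, with Ptgs2 at 6.10 in WT and 4.12 in KO, and the right panel holds open points, Ptgs2 on day 3 lying at 2.12.

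Other genes of the pathway were counted from a list of 24 genes, of which 23 are in the files under the symbols listed. From day 3 to day 7 in WT, 2 of 18 tested were called higher and 2 lower, where 10.6% and 8.7% of all genes were, with a median log2 change of -0.06 beside 0.01 over all genes. These shares are near the background. The higher ones were secretory phospholipases that release fatty acids, Pla2g2a at 1.89 (SE 0.57, adjusted p 0.0291 by edgeR) and Pla2g5 at 1.04 (SE 0.30, adjusted p 0.0253 by edgeR). The lower ones were Ptgfr, the receptor of prostaglandin F, at -1.40 (SE 0.38, adjusted p 0.0165 by edgeR), and Ptger3, the EP3 receptor, at -1.03 (SE 0.26, adjusted p 0.0113 by edgeR). Ptgfr was low, with 6 to 64 counts per library in WT day 3 and 6 to 28 in WT day 7, and its call is a description. In KO, 2 of 18 were called higher and 4 lower, where 10.5% and 8.83% of all genes were, with a median of -0.15 beside -0.01 over all genes. Pla2g2a was at 2.00 (SE 0.30, adjusted p 0.00024 by edgeR) and Pla2g5 at 1.05 (SE 0.32, adjusted p 0.0291 by edgeR) there. The lower ones were Akr1b3, Pla2g10, Ptgr1 and Ptger3, of which Ptger3 had the largest change. These 4 and the values of Ptger3 in KO are given after they were seen. Leaving out one library ended the call of Pla2g2a in WT in 5 of 14 fits, that of Pla2g5 in WT in 4 of 14 and that of Pla2g5 in KO in 9 of 15, with adjusted p up to 0.0604, 0.0594 and 0.0729.

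Pla2g2a was 0.329, 2.32 and 4.89 CPM in WT day 3 and 1.49, 6.05 and 19 CPM in WT day 7, and 1.26, 1.46 and 3.31 CPM in KO day 3 and 3.62, 6.81 and 13.3 CPM in KO day 7. In KO the groups did not overlap, and in WT they did. The lowest WT day 7 level was in d7_WT_419, the library highest in Ptgs2. Ptger3 was 3.40, 6.30 and 9.82 CPM in WT day 3 and 2.16, 3.07 and 4.97 CPM in WT day 7. It was lower in KO too, at -0.86 (adjusted p 0.021 by edgeR). Among the prostaglandin E receptors, Ptger3 and Ptger4 were called lower in both genotypes, the Ptger4 calls being close to the threshold. The others did not fall, as Ptger2 was called higher in KO and Ptger1 was called in neither genotype. Ptger1 means were 25.5 CPM in WT day 3 and 27.5 CPM in WT day 7, and 27.9 CPM in KO day 3 and 33.0 CPM in KO day 7.

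The neighbouring leukotriene pathway, which starts from the same fatty acid, was counted from a list of 10 genes. In WT, 2 of 7 tested were called higher on day 7 than on day 3 and 0 lower (median 0.34), where 10.6% and 8.7% of all genes were. These were Alox5ap, the activating protein of 5-lipoxygenase, at 3.33 (SE 0.61, adjusted p 0.00159 by edgeR), and Ltb4r1, a receptor of leukotriene B, at 2.94 (SE 0.49, adjusted p 0.000758 by edgeR). In KO, 4 of 8 were called higher and 0 lower (median 1.55), where 10.5% and 8.83% of all genes were. These were Alox15, a lipoxygenase, at 3.14 (SE 0.81, adjusted p 0.0117 by edgeR), Cysltr1, a cysteinyl leukotriene receptor, at 2.95 (SE 0.74, adjusted p 0.00985 by edgeR), Alox5ap at 2.93 (SE 0.63, adjusted p 0.00355 by edgeR) and Ltb4r1 at 2.19 (SE 0.59, adjusted p 0.0143 by edgeR). Without the library labelled d3_KO_345, Cysltr1 in KO was at 4.001 and Ltb4r1 at 3.15. Alox5ap was at 2.12 without d7_KO_420 and Alox15 at 2.502 without d7_KO_367, and all 4 stayed called. Cysltr1 was near the counting floor on day 3, with 1 to 32 counts in KO and 0 to 6 in WT. In WT its counts were too low for the filter and it was not tested, with means of 0.0418 CPM on day 3 and 0.564 CPM on day 7. Ltb4r1 had 3 to 20 counts in WT day 3 and 6 to 109 in KO day 3. The counts of leukotriene genes called are therefore a description. Alox15 in KO day 7 spread from 0.320 CPM in d7_KO_420 to 15.7 CPM in d7_KO_367, and in WT day 7 it was 0 to 1.07 CPM. Between genotypes on each of the 3 days, 0 genes of either list were called by edgeR. At an unadjusted p under 0.05 there were 5 of 16, 2 of 18 and 4 of 18 other prostaglandin genes on days 0, 3 and 7, where 10.5%, 7.88% and 12.9% of all genes were, and 0 of 4, 0 of 7 and 1 of 8 leukotriene genes.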

How the data were processed

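RNA of isolated intestinal epithelial cells was sequenced from 38 mice, per the labels, with a TruSeq stranded mRNA kit on a NovaSeq. The authors deposited 76 tables of raw counts per gene, 2 lanes per library, counted with featureCounts 1.6.2 in 1 distinct command without strand, per the file headers. The submitters' processing notes name Trim Galore, STAR, featureCounts 1.5.2 and GRCm38. Lanes were summed. CPM were scaled by TMM, TPM used the gene lengths in the files, and log2 CPM used a prior count of 2. Genes were filtered by edgeR's filterByExpr and tested with edgeR 4.0.16 (R 4.3.3, limma 3.58.1) by the quasi-likelihood F test, on the compared groups only, with Benjamini-Hochberg adjustment over all genes tested and a call at an adjusted p under 0.05. SE is the log2 fold change divided by the root of F. The test was also run on simulated counts for KO against WT on days 0 and 7 and for day 7 against day 3 in WT. That simulation held no outlying libraries and no series differences, and no result here rests on it. Alternatives were the DESeq2 1.42.0 Wald test, DESeq2 size factors in edgeR, no filter, a filter at a mean of 1 CPM, the first lane by itself, one fit of all 38 libraries and leaving out each library in turn. Counting precision was set by 10.5 to 60.6 M counts per library, and a floor of 3 counts was used. The members and lists were chosen with earlier results of these data known. All 10 members were named, and up to 6 other pathway genes per comparison were named by the largest change among those called. Likeness was Spearman's rho over the 14 day 7 libraries, naming 5 genes each. No per-sample column was left unused.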

Additional observations from a re-analysis of the deposited data

Results flagged for a closer look

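In each group of 4 to 8 libraries, the gap between the highest or lowest library and its neighbour was set against the group's range by Dixon's criterion for all 10 genes, which gave 6 flags over 60 combinations of gene and group. Chance flags about 1 in 20 where levels are normally distributed, which was not checked for these CPM, so that rate may not hold here. All 6 flags are at the high end. The library labelled d3_KO_345 stood above the other KO day 3 libraries for Ptgs2 (16.4 CPM, next 1.75 CPM), Tbxas1 (1.23 CPM, next 0.543 CPM) and Ptger2 (0.353 CPM, next 0.101 CPM), and it is also the KO day 3 library with the highest Hk2. Ptges2 was highest by such a gap in d0_WT_31 (39.8 CPM, next 28.6 CPM) and in d3_WT_381 (52.7 CPM, next 40.0 CPM). Ptger2 was highest in d7_KO_368 (1.31 CPM, next 0.422 CPM).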

How the results depend on the processing

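The day 7 against day 3 calls of Ptgs2, Ptges and Tbxas1 in both genotypes and of Hpgds in KO held in every leave-one-out fit run. The number of members called between genotypes over days 3 and 7 was 0 in edgeR and 2 with the DESeq2 Wald test, and 0 to 1 when one library was left out (1 without d3_WT_346). Between day 3 and day 0 in WT it was 4, and 1 to 5 when one library was left out (1 without d0_WT_46, and 2 without d3_WT_346, d3_WT_348, d3_WT_353, d3_WT_486 or d0_WT_41). Directions turned when one library was left out for Ptgs2 between genotypes on day 7 (-0.36 to 0.81), and from day 3 to day 7 in WT for Ptges3 (-0.14 to 0.10), Ptges2 (-0.11 to 0.028), Hpgds (-0.15 to 0.037) and Hpgd (-0.19 to 0.014), and in KO for Ptgs1 (-0.0098 to 0.37) and Ptges2 (-0.044 to 0.022, and 0.028 in one fit of all 38 libraries). None of these was called. The cause was not tested. Counts over all genes differed by more than 1.5 times between genotypes. On day 0 there were 5 calls in edgeR, 177 in DESeq2, 52 with no filter and 0 to 37 leaving out one library. On day 3 there were 1, 2 in DESeq2, 0 with a mean CPM of at least 1 and 0 to 1. On day 7 there were 1, 83 in DESeq2, 2 with no filter, 0 with a mean CPM of at least 1, 38 in one fit of all 38 libraries and 1 to 2. Over days 3 and 7 there were 2, 555 in DESeq2, 159 in one fit of all 38 libraries, 0 with a mean CPM of at least 1, 1 with lane 1 alone and 1 to 555 leaving out one library (555 without d3_WT_346, and more than 1.5 times the 2 calls also without d7_KO_420, d7_WT_419, d3_KO_351 or the library labelled d3_KO_345). No paired analysis was possible because the replicate numbers are animal numbers that no 2 groups share. Depth limits Ptger2 on days 0 and 3, Tbxas1 on day 3 and Ptgs2 on day 0, which lie at or near 3 counts in many libraries.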
